A study of Mus musculus with 12 samples.

Results

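Chemokine ligands are small secreted or membrane-anchored proteins that bind G protein-coupled receptors on leukocytes and direct where those cells move. Members were all genes with a probe set annotated to that gene alone and a symbol of Ccl or Cxcl followed by a digit, or Cx3cl1 or Xcl1. The rule found 33 genes of the 18193 genes on the array, measured by 51 of its 45037 probe sets. Each gene was read from its brightest probe set in each tissue. Another 4 probe sets that named a ligand together with other genes were left out, and the ligands Pf4 and Ppbp lie outside the rule because of their symbols. Chemokines fall into families by receptor. Ligands of CXCR2 attract neutrophils, ligands of CXCR3 are induced by interferon and attract activated T cells, ligands of CCR2 attract monocytes, and homing ligands such as Cxcl12 position cells in resting tissue. In the liver, Kupffer cells, hepatocytes, stellate cells and sinusoidal endothelium can all make chemokines, and in the artery wall activated endothelium presents them to passing leukocytes.

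The study asked what loss of Dscr-1, the gene Rcan1 whose product inhibits calcineurin and thereby NFAT, does on a background lacking ApoE, the ligand through which remnant lipoproteins are cleared. Livers came from adult C57BL/6J mice that were WT, null for Dscr-1, null for ApoE, or null for both (double null), with 2 arrays a genotype. The labels give all 8 a high-fat diet (HFD) for 12 weeks, while the study's own text has the array livers on chow, so their diet is in doubt. Primary endothelial cells from the aorta of ApoE null and double null mice, cultured for several days, gave 2 arrays a genotype, so by their labels all 4 aortic arrays carried the ApoE deletion, and no WT aorta is among them. The design text of the series instead names Dscr-1 knockout cells as the aortic control. The knockouts were whole-animal deletions, and nothing in the sources says that arrays of a group were pooled. Whether the 2 arrays of a group came from separate mice or cultures was not established. A p-value here therefore measures the spread between those arrays.

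The liver arrays were deposited as linear MAS5 signals with array medians of 32.2 to 44.7, and the aortic arrays as log2 values with medians of 4.455 to 4.499. Levels below the array median were read as dim, and no probe set was compared with another for level. ApoE null liver array 1 stood apart, with a mean correlation of 0.8393 with the other liver arrays against 0.8746 to 0.8851 for the rest, and double null aortic array 2 correlated at 0.985 with the others against 0.9906 to 0.9916. Apoe measured 305 and 177.1 on the ApoE null and 83.7 and 79.8 on the double null liver arrays, and 19937.4 to 21510.3 on the other liver arrays. In the aorta the same probe set measured 7.27 and 7.17 on the ApoE null and 8.29 and 6.69 on the double null arrays, above the medians, and with no ApoE intact array beside them this checks nothing. The brighter Rcan1 probe set was not lower where Dscr-1 is labelled null, at 210 and 133.7 in WT, 255.2 and 353.1 in Dscr-1 null, 496.5 and 176.7 in ApoE nulls and 491.5 and 209.5 in double nulls, and 9.99 and 9.92 against 10.09 and 10.26 in the aorta. No source places the Rcan1 probe sets inside or outside the deletion, so the Dscr-1 directions rest on the labels. All 7 hepatocyte markers with a probe set were above the median on 7 of the 8 liver arrays, with 6 of them above it on double null array 1, and all 13 endothelial markers were above it on all 4 aortic arrays. In the liver the X-linked Hprt measured 46.9 and 54.8 in WT, 819.7 and 65.9 in Dscr-1 null and 884.2 to 1018.7 on the ApoE lacking arrays, so it separated WT from ApoE lacking livers and the 2 Dscr-1 null arrays from each other. In the aorta it measured 6.90 and 6.73 on the ApoE null arrays and 10.68 and 10.63 on the double null arrays. Xist, the RNA of the inactive X chromosome, measured 9.06 and 8.85 on the ApoE null and 4.04 and 4.51 on the double null aortic arrays, and the Y-linked Eif2s3y measured 8.21 to 8.51 on all 4. Hprt and Xist separated the aortic genotypes as the labels do, and whatever they mark cannot be told apart from genotype.

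Most of these genes lie in a few clusters, and many neighbours in a cluster share receptors. On mouse chromosome 5 the order was Cxcl5, Cxcl3, Cxcl15, Cxcl1 and Cxcl2, with Ppbp and Pf4 between them, and Cxcl9 and Cxcl10 were neighbours farther along. On chromosome 11, Ccl2, Ccl7, Ccl11, Ccl12, Ccl8 and Ccl1 formed a group and Ccl5, Ccl9, Ccl6, Ccl3 and Ccl4 another. RefSeq windows reaching from 250 bases before to 50 bases after the start site, on build GRCm38.p6, were at hand for 23 of the 33 members, and those of Ccl2, Ccl4, Ccl5, Ccl7, Ccl11, Ccl24, Cxcl5, Cxcl11, Cxcl16 and Cxcl17 were not. The 200 bases before the start site are shown for Cxcl1, Cxcl2, Cxcl3 and Ccl20, whose values stood apart together on 1 aortic array, for Cxcl10, which was higher on the same array by less, and for Cxcl12, which was lower there. Each runs 5′ to 3′ along the gene's strand, and the capitals mark matches to the NF-kB consensus, the site of the transcription factor that inflammatory cytokines activate.
Cxcl1 (chr5:90891045-90891244, plus strand): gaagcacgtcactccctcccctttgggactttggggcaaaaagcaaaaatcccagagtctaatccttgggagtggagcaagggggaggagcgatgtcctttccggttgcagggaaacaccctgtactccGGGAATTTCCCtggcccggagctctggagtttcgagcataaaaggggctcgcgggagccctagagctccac
Cxcl2 (chr5:90903699-90903898, plus strand): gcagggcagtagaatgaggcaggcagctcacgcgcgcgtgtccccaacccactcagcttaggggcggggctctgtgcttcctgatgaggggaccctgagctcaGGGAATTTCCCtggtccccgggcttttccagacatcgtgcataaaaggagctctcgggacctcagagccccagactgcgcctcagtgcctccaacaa
Cxcl3 (chr5:90785901-90786100, plus strand): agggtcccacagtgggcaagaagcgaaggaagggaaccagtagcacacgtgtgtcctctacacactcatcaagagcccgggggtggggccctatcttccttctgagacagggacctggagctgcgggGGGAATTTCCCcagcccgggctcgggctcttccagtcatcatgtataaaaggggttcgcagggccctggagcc
Ccl20 (chr1:83116566-83116765, plus strand): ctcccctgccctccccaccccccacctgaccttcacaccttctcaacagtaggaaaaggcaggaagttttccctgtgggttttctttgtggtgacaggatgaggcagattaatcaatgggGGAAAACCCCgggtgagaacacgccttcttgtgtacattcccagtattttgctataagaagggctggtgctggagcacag
Cxcl10 (chr5:92348890-92349089, minus strand): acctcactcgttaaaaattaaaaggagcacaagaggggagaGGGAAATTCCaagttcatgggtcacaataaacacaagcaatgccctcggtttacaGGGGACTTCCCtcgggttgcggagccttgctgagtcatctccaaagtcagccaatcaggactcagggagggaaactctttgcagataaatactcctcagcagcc
Cxcl12 (chr6:117168335-117168534, plus strand): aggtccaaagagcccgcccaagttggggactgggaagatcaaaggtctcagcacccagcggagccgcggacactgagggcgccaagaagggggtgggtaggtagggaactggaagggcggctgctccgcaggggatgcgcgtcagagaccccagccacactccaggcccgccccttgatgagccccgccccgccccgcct
The runs of capitals in Cxcl1, Cxcl2 and Cxcl3 are the same letters, and begin at positions -71, -97 and -73 from the start site. The match in Ccl20 begins at -80 and those in Cxcl10 at -159 and -104, while the Cxcl12 window held none. Matches on either strand stood in the windows of 8 members, Ccl1, Ccl9, Ccl20, Ccl27a, Cxcl1, Cxcl2, Cxcl3 and Cxcl10, which is 30.8% of their 26 windows against 8.46% of all 32851 windows. Searched the same way on both strands, the AP-1 motif TGANTCA was in 19.2% of the members' windows and 7.81% of all, the NFAT core GGAAA in 73.1% and 61.3% and the GAS element TTCNNNGAA in 7.69% and 8.3%. The NFAT core can overlap the NF-kB consensus. A match describes the letters and is no evidence of binding.

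In the liver, 6 ligands were above the array median on all 8 arrays. Cxcl12, the CXCR4 ligand that stromal and endothelial cells make in resting tissue, measured 1657.9 and 908.3 in WT, 784.9 and 830.7 in Dscr-1 null, 761.1 and 916.4 in ApoE nulls and 795.4 and 592 in double nulls. Ccl9, a CCR1 ligand of mouse macrophages, measured 558 and 534.4, 739.5 and 575.7, 377.7 and 1272.9, and 766.2 and 680.4 in the same order. Ccl27a, a ligand of CCR10, measured 40.9 and 80, 92.8 and 37.7, 105.8 and 84.9, and 101.9 and 84.7. For Cxcl12 the spread came mostly from WT array 1, for Ccl9 it was widest within the ApoE null livers, and for Ccl27a the 2 arrays of WT and of Dscr-1 null differed more than the genotype means did. The other 3 were Cxcl1, Cxcl9 and Ccl6, whose values follow. A further 24 ligands were above the median on some arrays, and Ccl11, Ccl17 and Ccl20 on none, with highest signals of 28.8, 17.4 and 26.6. The filter for testing, above the median on at least 2 arrays, left out these 3 and Ccl7, Cxcl3, Cxcl5, Cxcl17 and Xcl1, so 25 of 33 were tested. Among the 25, Ccl12, Ccl24, Cxcl2 and Cxcl10 passed it only through Dscr-1 lacking arrays. Ccl1 and Cxcl13 passed it only through ApoE intact arrays, and Cxcl15 only through ApoE lacking arrays. A count that holds such a gene in the matching comparison is therefore shaped by the filter.

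**Figure D1:**
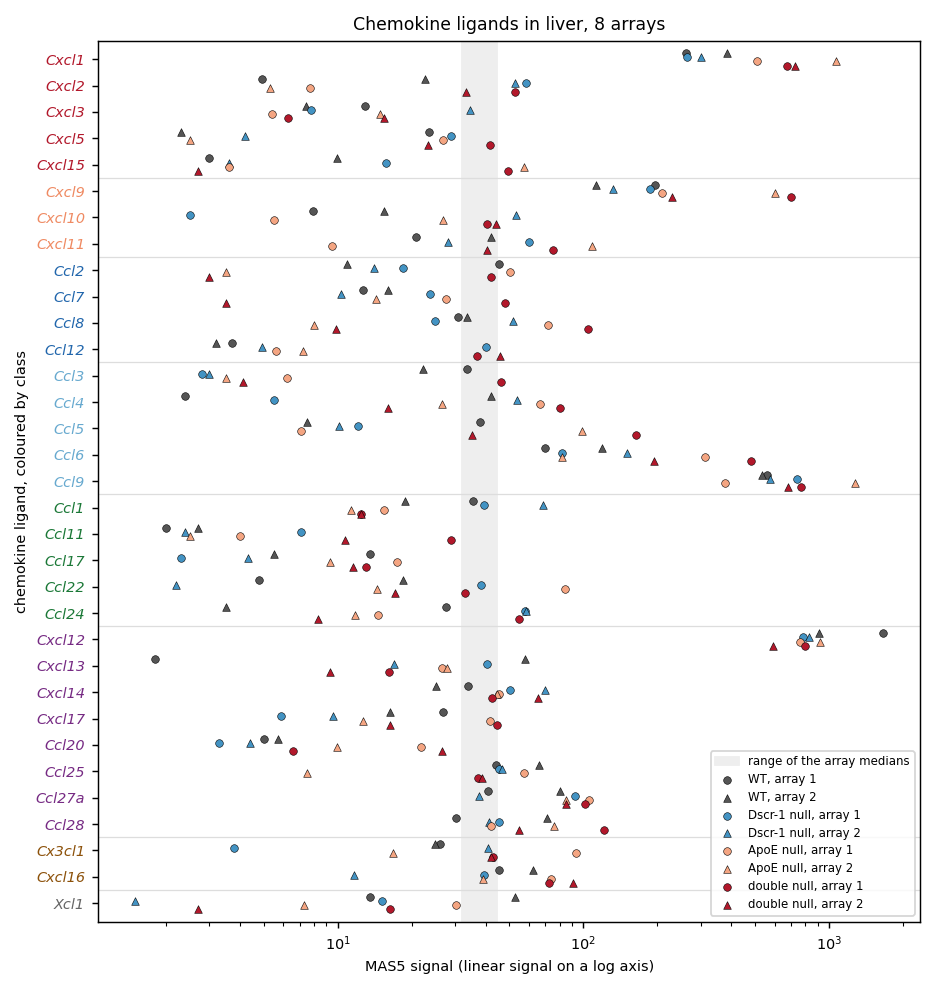
MAS5 signal (linear units, log axis) of the 33 chemokine ligands on the 8 liver arrays, with genotype by colour, array 1 as circles, array 2 as triangles and the range of the array medians, 32.2 to 44.7, as a grey band. Cxcl12, Ccl9, Cxcl1, Cxcl9, Ccl6 and Ccl27a lie above their array's median on all 8 arrays, and most other ligands scatter across the band.

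Across the 4 liver genotypes the ligands with the smallest p for loss of ApoE were Cxcl1 and Cxcl9, higher in ApoE lacking livers, and Ccl1, lower in them, and none passed the adjusted threshold of 0.05. Cxcl1, which recruits neutrophils through CXCR2, measured 262.6 and 383.1 in WT, 265.2 and 301.2 in Dscr-1 null, 511.2 and 1068.6 in ApoE nulls and 672.2 and 723.5 in double nulls. All 4 arrays lacking ApoE were above all 4 that kept it. The log2 difference, on the scale of log2(signal + 16) used for every liver difference here, was 1.22 (SE 0.31, limma adjusted p = 0.597). The other 2 Cxcl1 probe sets gave 1.64 (SE 0.46, limma adjusted p = 0.622) and 0.94 (SE 0.28, limma adjusted p = 0.624), also with no overlap. With limma's trend and robust options Cxcl1 passed, alone of the 25 tested ligands, at an adjusted p of 9.62e-05, where 0.474% of genes passed. The brightest probe set and the one with the difference of 0.94 carry suffixes that mark possible matches to related transcripts, and the one with the difference of 1.64 does not.

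Cxcl9, an interferon gamma-induced CXCR3 ligand, measured 195 and 112.6 in WT, 187.1 and 132.5 in Dscr-1 null, 209.1 and 605.3 in ApoE nulls and 698.9 and 230.4 in double nulls. The groups did not overlap, though the lowest ApoE null array lay close to the highest WT array, and the difference was 1.23 (SE 0.47, limma adjusted p = 0.725). A second Cxcl9 probe set gave 1.06 with overlapping groups. Ccl1, a CCR8 ligand of activated T cells, measured 35.6 and 18.8 in WT, 39.5 and 68.5 in Dscr-1 null, 15.4 and 11.3 in ApoE nulls and 12.5 and 12.4 in double nulls. Every ApoE lacking array was below every ApoE intact array and below its own median, so these low signals have little precision. The Ccl1 difference was -0.90 (SE 0.28, limma adjusted p = 0.639).

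Ccl6, a CCR1 ligand of mouse macrophages, measured 69.6 and 119.6 in WT, 81.8 and 149.9 in Dscr-1 null, 312.5 and 81.9 in ApoE nulls and 479.3 and 194 in double nulls. ApoE null array 2 lay among the ApoE intact arrays, and the difference was 1.04 (SE 0.48, limma adjusted p = 0.794). Ccl5, an inflammatory CC ligand of T cells and macrophages, measured 38 and 7.5, 12.1 and 10.1, 7.1 and 98.4, and 163.9 and 35.1 in the same order, a difference of 1.18 (SE 0.61, limma adjusted p = 0.837). Cxcl16, a membrane-anchored CXCR6 ligand that also binds oxidised lipoprotein, measured 45.4 and 62.6, 39.4 and 11.7, 73.7 and 39.2, and 72.4 and 90.5, a difference of 0.66 (SE 0.33, limma adjusted p = 0.815). The groups overlapped for both Ccl5 and Cxcl16.

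By limma's adjusted p, 0 of the 25 tested ligands passed for ApoE lacking against ApoE intact livers, where 0.00678% of all tested genes did. At an unadjusted p under 0.05, 2 ligands were higher (Cxcl1 and Cxcl9) against 3.94% of genes, and 1 was lower (Ccl1) against 1.74%. Ccl1 passed the filter only through ApoE intact arrays, so its count cannot support a difference. The groups did not overlap for 3 higher ligands of 33 (Cxcl1, Cxcl9 and the dim Ccl20) against 2.15% of all genes, and for 1 lower ligand (Ccl1) against 1.55%. Without ApoE null array 1, the same 3 ligands were higher with no overlap against 3.58% of genes, and Ccl1 and Ccl25 were lower against 2.78%. Over all 33 ligands the median difference was 0.38, with 23 above 0, beside a median of 0.02 and 51.8% above 0 over all genes. Without that array the ligand median was 0.27. By role, the median was 0.69 in the inflammatory CC ligands, 0.43 in the interferon-induced CXC ligands, 0.36 in the neutrophil-attracting CXC ligands and 0.10 in the monocyte-attracting CC ligands. The homing and mucosal ligands ranged from -0.48 to 0.60, the membrane-anchored Cx3cl1 and Cxcl16 were both at 0.66, and the C ligand Xcl1 was at -0.19. Another Cx3cl1 probe set was lower in ApoE lacking livers on average. It measured 44.2 and 35.9 in WT, 12.7 and 45.7 in Dscr-1 null, 4.1 and 22.2 in ApoE nulls and 2.6 and 51.6 in double nulls. The remaining Cx3cl1 probe sets were higher on average, with overlapping groups. Ccl2, the main monocyte attractant and named here after its values were seen, measured 45.3 and 10.9 in WT, 18.4 and 14 in Dscr-1 null, 50.2 and 3.5 in ApoE nulls and 42 and 3 in double nulls. Its 2 arrays differed more within most genotypes than between them. In bulk RNA a lower level from fewer cells of a type and from less RNA per cell cannot be told apart.

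**Figure D2:**
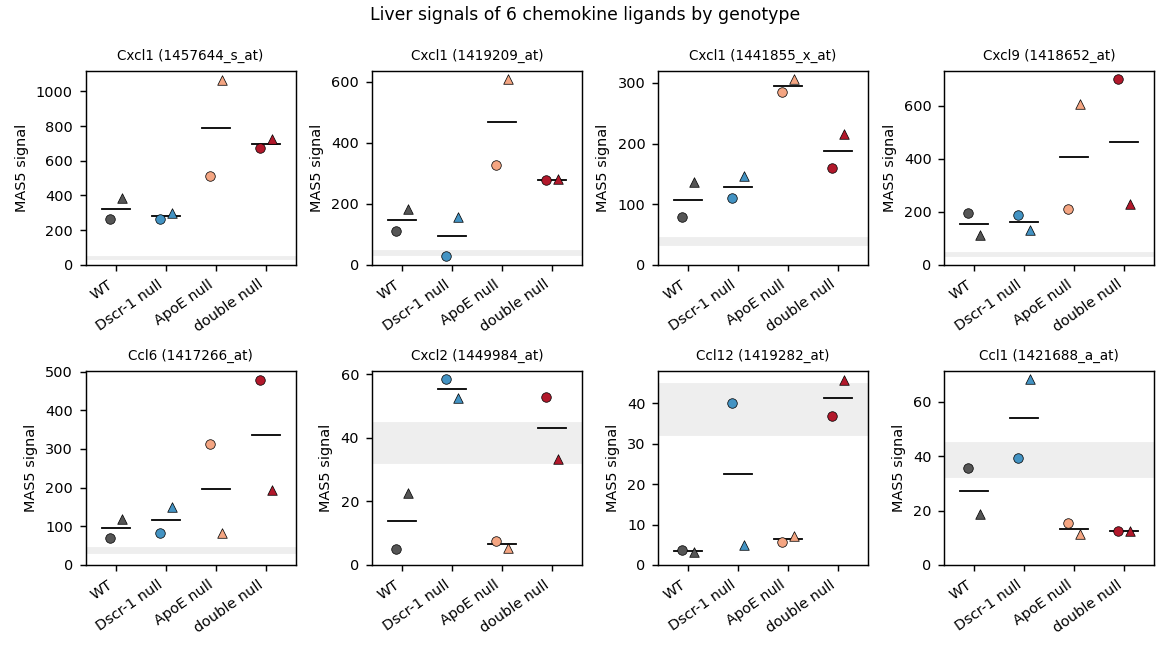
MAS5 signal on each liver array (circles for array 1, triangles for array 2) and the mean of the 2 arrays of a genotype (black lines) for 3 probe sets of Cxcl1 and for Cxcl9, Ccl6, Cxcl2, Ccl12 and Ccl1, with the range of array medians in grey. All 3 Cxcl1 probe sets are higher on all 4 ApoE lacking arrays, Ccl1 is lower on them, and Cxcl2 is higher on all 4 Dscr-1 lacking arrays.

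For each genotype set against WT, the 2 single nulls and the double null share the same 2 WT arrays. In ApoE null livers Cxcl1 differed by 1.18 (SE 0.45, limma adjusted p = 0.714) and Cxcl9 by 1.18 (SE 0.67, limma adjusted p = 0.852). Ccl3, an inflammatory CC ligand of macrophages, measured 33.7 and 22.3 in WT and 6.2 and 3.5 in ApoE null livers, a difference of -1.07 (SE 0.54, limma adjusted p = 0.824), with WT array 1 the only 1 of these 4 above its median. Ccl22, a CCR4 ligand of dendritic cells, measured 4.8 and 18.5 in WT and 83.9 and 14.5 in ApoE null livers, a difference of 1.04 (SE 0.71, limma adjusted p = 0.874) that came from ApoE null array 1. Ccl25, a CCR9 ligand, measured 44 and 65.7 in WT and 57.1 and 7.5 in ApoE null livers, a difference of -0.76 (SE 0.54, limma adjusted p = 0.885) that came from ApoE null array 2. The Ccl1 difference was -0.53 (SE 0.40, limma adjusted p = 0.886). The count past the adjusted threshold was 0 of 25, against 0.0136% of genes, and 1 ligand (Cxcl1) was higher at an unadjusted p under 0.05 against 3.46%. There was no overlap for 6 higher ligands (Ccl12, Ccl20, Ccl27a, Cxcl1, Cxcl9 and Cxcl14) against 17.9% of genes and for 2 lower (Ccl1 and Ccl3) against 15.9%.

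The double null against WT comparison had the most ligands on 1 side. The median over the 33 was 0.54 with 26 above 0, beside 0.02 and 51.5% above 0 over all genes. Ccl12, a CCR2 ligand that attracts monocytes in the mouse, measured 3.7 and 3.2 in WT and 37 and 45.9 in double null livers, a difference of 1.56 (SE 0.49, limma adjusted p = 0.681). The WT values lie far below the array medians and the double null values are close to them, so the size of the fold is set by dim signals. Ccl6 differed by 1.58 (SE 0.68, limma adjusted p = 0.821), Cxcl9 by 1.35 (SE 0.67, limma adjusted p = 0.866) and Cxcl12 by -0.82 (SE 0.42, limma adjusted p = 0.867). Cxcl1 and Cxcl2 differed by 1.10 (SE 0.45) and 1.04 (SE 0.42), both at a limma adjusted p of 0.792. Here too 0 of 25 passed the adjusted threshold, against 0.0136% of genes, while 4 ligands (Ccl6, Ccl12, Cxcl1 and Cxcl2) were higher at an unadjusted p under 0.05 against 3.51%. Of the 4, Ccl12 and Cxcl2 passed the filter only through Dscr-1 lacking arrays. No overlap was seen for 13 higher ligands of 33 (Ccl6, Ccl9, Ccl11, Ccl12, Ccl20, Ccl27a, Cx3cl1, Cxcl1, Cxcl2, Cxcl9, Cxcl10, Cxcl14 and Cxcl16) against 19.6% of genes. No other Cx3cl1 probe set was higher without overlap, and 1 of them measured 44.2 and 35.9 in WT and 2.6 and 51.6 in double nulls. A dim Cx3cl1 probe set was lower without overlap, at 7.7 and 9.5 in WT and 3.9 and 6.9 in double nulls. For 3 lower ligands (Ccl1, Ccl25 and Cxcl12) the background was 17.7%. All 5 neutrophil-attracting CXC ligands were above 0, from 0.03 to 1.10 with a median of 0.83. So were all 3 interferon-induced CXC ligands, from 0.64 to 1.35 with a median of 1.09. Of these, Cxcl3 and Cxcl5 lay below the filter, and Cxcl15 and Cxcl10 were above the median on only 2 and 3 of the 8 arrays. A second Cxcl11 probe set went the other way, at 16.4 and 53.1 in WT and 1.7 and 26.9 in double nulls. So did a second Cxcl15 probe set, at 5.4 and 23 in WT and 2.9 and 5.2 in double nulls. The other probe sets of Cxcl1 and Cxcl9 were higher in double nulls on average.

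Against Dscr-1 null livers, double null livers gave Ccl1 at -1.27 (SE 0.40, limma adjusted p = 0.769), Cxcl1 at 1.26 (SE 0.45, limma adjusted p = 0.82) and Cxcl16 at 1.31 (SE 0.47, limma adjusted p = 0.82). Ccl5 differed by 1.82 (SE 0.87, limma adjusted p = 0.972), and Ccl6 and Cxcl9 by 1.34 (SE 0.68) and 1.27 (SE 0.67), both at a limma adjusted p of 0.996. None of the 25 passed, against 0.00678% of genes, and with limma's trend and robust options Cxcl1 passed alone (adjusted p = 0.0392), against 0.19%. At an unadjusted p under 0.05, 2 ligands (Cxcl1 and Cxcl16) were higher against 2.84% of genes and 1 (Ccl1) was lower against 1.48%. Ccl1 passed the filter only through ApoE intact arrays. The arrays did not overlap for 12 higher ligands, among them Ccl3, Ccl5, Ccl6, Ccl28 and Cx3cl1, against 18.2%. For 4 lower ligands (Ccl1, Ccl24, Ccl25 and Cxcl13) the background was 15.8%. A second Ccl6 probe set was higher and a second Ccl25 probe set lower, also without overlap. The other Ccl28 probe sets overlapped. So did a second Cxcl13 probe set, at 21.5 and 3.2 in Dscr-1 null and 52 and 21.3 in double nulls. No other Cx3cl1 probe set was higher without overlap in this comparison. A dim one was lower without overlap, at 30.7 and 13.4 in Dscr-1 null and 3.9 and 6.9 in double nulls. The median over the 33 was 0.51 with 25 above 0, beside 0.02 and 51.9% above 0 over all genes.

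For loss of Dscr-1 the liver ligand with the smallest p was another CXCR2 ligand, and it too missed the adjusted threshold. Cxcl2, made by activated macrophages, measured 4.9 and 22.7 in WT, 58.4 and 52.6 in Dscr-1 null, 7.7 and 5.3 in ApoE nulls and 52.8 and 33.4 in double nulls. The 4 Dscr-1 lacking arrays were above the other 4, all of which lay under their medians, and double null array 2 lay just under its own. The difference was 1.35 (SE 0.30, limma adjusted p = 0.695). Ccl12 measured 40.2 and 4.9 in Dscr-1 null and 5.6 and 7.2 in ApoE null livers, beside the WT and double null values above, a difference of 1.09 (SE 0.35, limma adjusted p = 0.734). Dscr-1 null array 2 lay among the Dscr-1 intact arrays, so these groups overlapped. Ccl24, a CCR3 ligand that attracts eosinophils, measured 27.7 and 3.5, 57.6 and 58.6, 14.6 and 11.8, and 54.5 and 8.3 in that order of genotypes, a difference of 0.92 (SE 0.42, limma adjusted p = 0.862). Cxcl14, a ligand of epithelia, measured 33.9 and 25.2, 50.2 and 70.1, 45.2 and 44.7, and 42.5 and 65.4, a difference of 0.46 (SE 0.26, limma adjusted p = 0.932). Cxcl10, a CXCR3 ligand, measured 7.9 and 15.4, 2.5 and 53.4, 5.5 and 26.9, and 40.4 and 44.2, a difference of 0.66 (SE 0.46, limma adjusted p = 0.969). For Ccl24, Cxcl14 and Cxcl10 alike the Dscr-1 lacking and intact arrays overlapped. Cxcl12 differed by -0.44 (SE 0.29, limma adjusted p = 0.963).

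For Dscr-1 lacking against Dscr-1 intact livers, limma passed 0 of 25 ligands and 0% of genes. At an unadjusted p under 0.05, 2 ligands (Ccl12 and Cxcl2) were higher against 2.22% of genes. Both passed the filter only through Dscr-1 lacking arrays, so this count cannot support a difference. Cxcl2 alone of the 33 was higher with no overlap, against 1.42% of genes, and 0 were lower with no overlap, against 1.38%. The median over the 33 ligands was 0.10, with 21 above 0, beside 0.00 and 49.4% above 0 over all genes. The homing and mucosal ligands ranged from -0.44 to 0.46 with a median of -0.02.

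Between Dscr-1 null and WT livers alone, Cxcl2 differed by 1.33 (SE 0.42, limma adjusted p = 0.899). Ccl24 was at 1.34 (SE 0.59), Ccl3 at -1.21 (SE 0.54), Cxcl14 at 0.74 (SE 0.37), Cxcl16 at -0.83 (SE 0.47) and Ccl1 at 0.69 (SE 0.40), each with a limma adjusted p of 1. Of 25 ligands 0 passed, against 0.00678% of genes, and 1 (Cxcl2) was higher at an unadjusted p under 0.05 against 1.92%. Cxcl2 passed the filter only through Dscr-1 lacking arrays. There were 6 higher ligands with no overlap (Ccl1, Ccl9, Ccl12, Ccl24, Cxcl2 and Cxcl14) against 16.3% of genes, and 6 lower (Ccl3, Ccl17, Ccl20, Cxcl12, Cxcl16 and Cxcl17) against 16.7%. The median was 0.12, with 20 of 33 above 0, beside -0.01 and 49% above 0 over all genes.

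On the ApoE null background, where loss of Dscr-1 was the study's main question, double null against ApoE null livers gave Cxcl2 at 1.38 (SE 0.42, limma adjusted p = 0.602) and Ccl12 at 1.36 (SE 0.49, limma adjusted p = 0.675). Both double null arrays were above both ApoE null arrays for each of these genes. Cxcl10 was at 0.94 (SE 0.64, limma adjusted p = 0.919), Ccl3 at 0.77 (SE 0.54, limma adjusted p = 0.926), Ccl6 at 0.85 (SE 0.68, limma adjusted p = 0.934) and Ccl5 at 0.90 (SE 0.87, limma adjusted p = 0.949). Without ApoE null array 1 or double null array 1 the Ccl5 difference was -0.25 or -0.01, and without ApoE null array 2 that of Ccl6 was -0.03. Cxcl1, the ligand with the smallest p for loss of ApoE, was at -0.08, -0.65 and -0.63 by its 3 probe sets. Passing ligands were 0 of 25, against 0% of genes, with 2 (Ccl12 and Cxcl2) higher at an unadjusted p under 0.05 against 2.83%. Both passed the filter only through Dscr-1 lacking arrays. There was no overlap for 4 higher ligands (Ccl11, Ccl12, Cxcl2 and Cxcl10) against 16.4% of genes and for 1 lower ligand (Cxcl13) against 15.7%. A second Cxcl13 probe set overlapped, at 101.8 and 4 in ApoE nulls and 52 and 21.3 in double nulls. The median was 0.12 with 19 of 33 above 0, beside 0.00 and 49.8% above 0 over all genes. Without ApoE null array 1 the ligand median was 0.26 with 24 above 0.

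The interaction asks whether loss of Dscr-1 acted differently with and without ApoE. Ccl3 had the smallest p among the ligands, at 1.97 (SE 0.76, limma adjusted p = 0.867). Its signals were 33.7 and 22.3 in WT, 2.8 and 3 in Dscr-1 null, 6.2 and 3.5 in ApoE nulls and 46.3 and 4.1 in double nulls. It was above the median on WT array 1 and double null array 1 only, so without either array it was below the filter and had no fit. Cxcl16 was at 1.29 (SE 0.66, limma adjusted p = 0.972), and Ccl5, Ccl24, Ccl1 and Cxcl14 were at 1.29 (SE 1.23), -0.84 (SE 0.83), -0.73 (SE 0.56) and -0.56 (SE 0.53), each with a limma adjusted p of 1. None of the 25 passed, against 0% of genes, and 1 (Ccl3) was above 0 at an unadjusted p under 0.05 against 2.07%. The methods' t-test on the same values, after Benjamini-Hochberg adjustment, also called 0 ligands in the 8 comparisons for which it could be run.

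**Figure D3:**
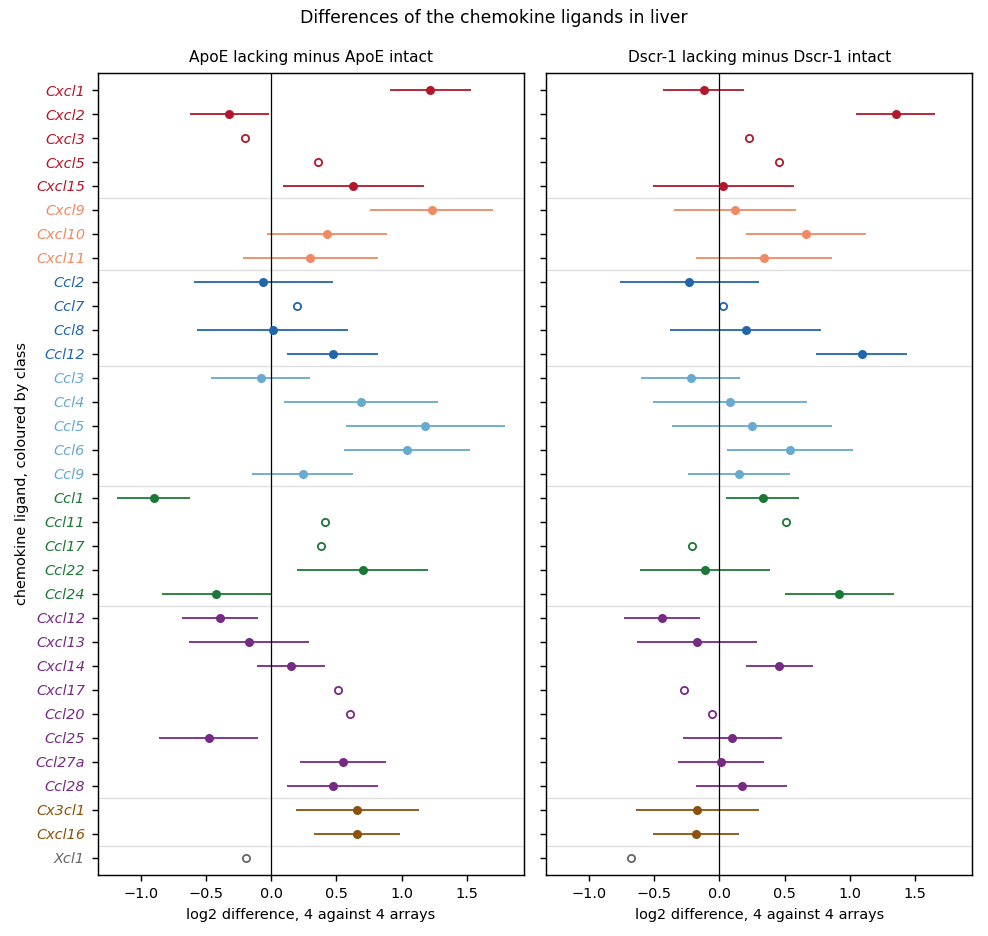
Difference in log2(signal + 16) with its standard error for each of the 33 ligands between ApoE lacking and ApoE intact livers and between Dscr-1 lacking and Dscr-1 intact livers, 4 arrays against 4, with filled points for the 25 tested genes and open points for those below the filter. Cxcl1 (1.22) and Cxcl9 (1.23) lie to the right and Ccl1 (-0.90) to the left for ApoE, and Cxcl2 (1.35) and Ccl12 (1.09) to the right for Dscr-1.

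The other genes of the pathway in liver did not pass either. Of 23 chemokine receptors, 21 had a probe set and 13 were tested, and 0 had an unadjusted p under 0.05 in any liver comparison. For loss of ApoE their median was 0.28, with Cxcr3, the receptor of Cxcl9, at 0.84 (SE 0.47, limma adjusted p = 0.856) and Ccr2 at 0.82 (SE 0.48, limma adjusted p = 0.871). In the list of the interferon gamma route to CXCR3 ligands, 2 of 11 tested genes were higher at an unadjusted p under 0.05 for loss of ApoE, beside 3.94% of all genes, and 0 passed, with Gbp2, an interferon-induced GTPase, at 1.32 (SE 0.37, limma adjusted p = 0.616) and Irf8, a myeloid transcription factor, at 1.08 (SE 0.35, limma adjusted p = 0.655). Of 14 NF-kB pathway genes 2 were higher at that level, beside the same 3.94%, and 0 passed, the lowest p being that of Relb, an NF-kB subunit, at 1.10 (SE 0.33, limma adjusted p = 0.624). For loss of Dscr-1 the receptor median was -0.16, and in the list of upstream cytokines and sensors Il1r1, the interleukin-1 receptor, had the smallest p at 1.17 (SE 0.32, limma adjusted p = 0.716).

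The summed macrophage markers were higher on all 4 ApoE lacking arrays than on the other 4, as Cxcl1 and Cxcl9 were. The summed signal of all 16 macrophage and Kupffer cell markers was 6392 and 8464 in WT, 8405 and 6975 in Dscr-1 null, 16800 and 10910 in ApoE nulls and 24910 and 16440 in double nulls. Their median difference for loss of ApoE was 1.0, with unadjusted p under 0.05 for 11 higher genes, beside 3.94% of all genes, and 1 lower gene, beside 1.74%, and 0 passing, and for loss of Dscr-1 it was 0.32. Lgals3, a galectin of macrophages, was at 2.82 (SE 0.39, limma adjusted p = 0.535), while Adgre1, the F4/80 antigen, measured 148.9 and 308.6 in WT, 151.6 and 204.8 in Dscr-1 null, 197.5 and 193.6 in ApoE nulls and 163.4 and 193.8 in double nulls. The summed neutrophil markers were 279.3 and 251.3, 383.7 and 357.8, 479.8 and 353.3, and 565 and 507.1 in the same order, and of their 9 genes only 1 was above the median on every liver array. The part of these cells in the chemokine values was not tested.

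In cultured aortic endothelial cells, 14 ligands were above the median on all 4 arrays, and the CXCR2 ligands were far higher on 1 double null array than on the other 3 arrays. Cxcl1 measured 8.08 and 7.87 on the ApoE null arrays and 7.78 and 12.94 on the double null arrays, in deposited log2 units as for every aortic value. Cxcl2 measured 6.56 and 6.26 against 6.40 and 11.87, with array 1 of each genotype given before array 2 here and below. Double null array 1 sat with the ApoE null arrays for both genes, and the groups overlapped. Cxcl3 and Cxcl5, from the same cluster and also acting through CXCR2, measured 2.44 and 2.22 against 2.39 and 7.68, and 2.97 and 2.76 against 2.93 and 9.67. They were above the array median on double null array 2 only, and so stayed below the filter.

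Other ligands showed the same array apart to a smaller degree. Ccl7, a CCR2 ligand, measured 9.10 and 9.10 against 9.41 and 12.07. Ccl20, the CCR6 ligand, measured 4.58 and 4.69 against 4.75 and 8.41. For both genes the 2 double null arrays were above the ApoE null arrays, array 1 by little. Ccl2, the main monocyte-attracting CCR2 ligand, measured 12.58 and 12.50 against 12.90 and 13.62. Cx3cl1, the membrane-anchored CX3CR1 ligand of endothelium, measured 7.54 and 7.31 against 7.68 and 8.09. Ccl2 and Cx3cl1 were higher on both double null arrays without overlap. A second Cx3cl1 probe set above the median on all 4 arrays overlapped, at 5.23 and 5.36 against 5.43 and 5.31. The inflammatory ligand Ccl5 measured 7.78 and 7.52 against 6.91 and 9.0, and Cxcl10 measured 7.47 and 7.84 against 6.51 and 9.23, so for both genes 1 double null array was the lowest and the other the highest.

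The other ligands above the median on all 4 arrays follow. Cxcl12 measured 11.20 and 11.21 against 11.50 and 9.94, with double null array 2 the lowest. Cxcl16 measured 10.46 and 10.34 against 10.15 and 10.51. These groups overlapped. Ccl24 measured 5.04 and 5.36 against 5.22 and 5.46, Ccl25 5.31 and 5.17 against 5.32 and 5.29, Ccl4 5.04 and 5.34 against 4.86 and 5.47, and Cxcl17 5.02 and 5.09 against 4.98 and 5.49, all overlapping and within about 1 log2 unit of the array medians. Ccl27a and Xcl1 were above the median on 2 arrays each and were also tested, so 16 of 33 ligands entered the fit. Ccl6, Ccl9, Cxcl3 and Cxcl5 were above it on 1 array each and 13 ligands on none, among them Cxcl9, Cxcl11, Ccl3, Ccl8 and Ccl12.

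**Figure D4:**
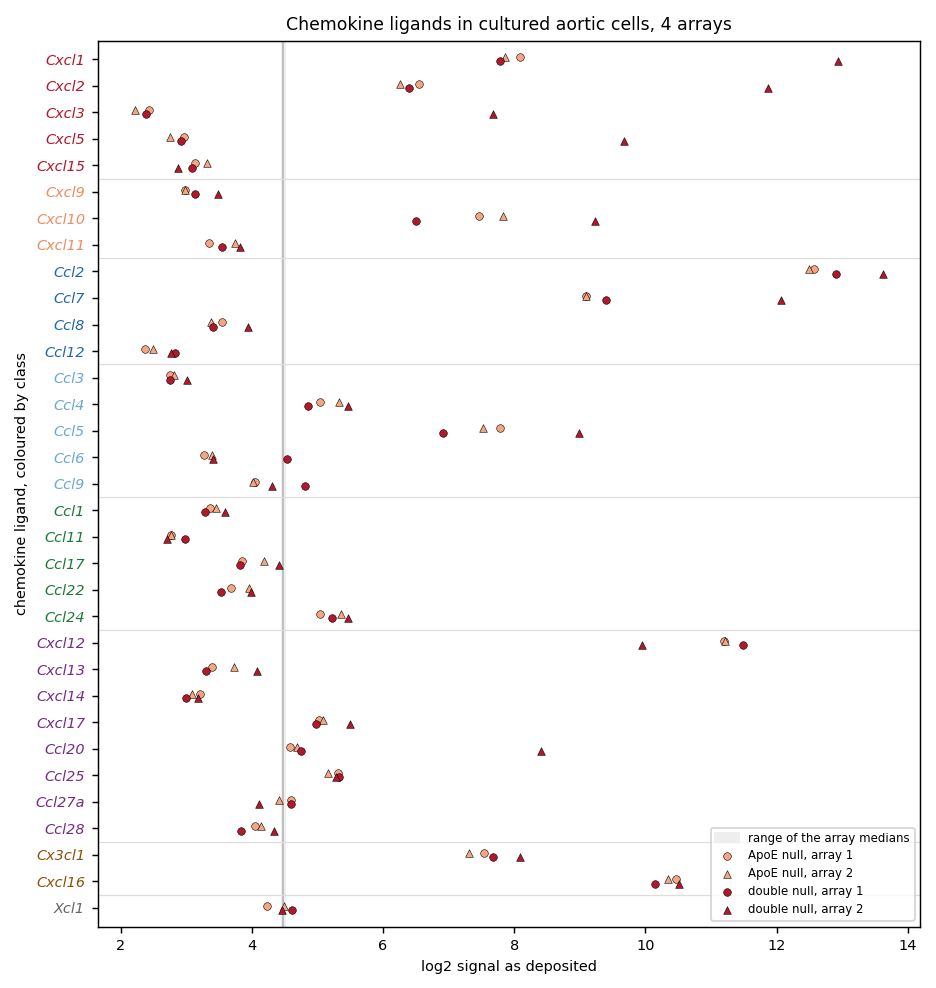
Deposited log2 value of the 33 ligands on the 4 aortic endothelial arrays, with genotype by colour, array 1 as circles, array 2 as triangles and a line at the array medians, 4.455 to 4.499. Double null array 2 stands far above the other 3 arrays for Cxcl1, Cxcl2, Cxcl3, Cxcl5, Ccl7 and Ccl20.

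In the comparison of double null with ApoE null aortic cells, Ccl2 differed by 0.73 (SE 0.27), Cx3cl1 by 0.46 (SE 0.21), Ccl7 by 1.64 (SE 0.86), Ccl20 by 1.95 (SE 1.18), Cxcl2 by 2.73 (SE 1.76) and Cxcl1 by 2.38 (SE 1.66), each with a limma adjusted p of 1. The larger differences had the larger errors because the 2 double null arrays differed from each other. Of the 16 tested ligands 0 passed, against 0.0172% of genes, and 1 (Ccl2) was higher at an unadjusted p under 0.05 against 2.67%. There was no overlap for 8 higher ligands of 33 (Ccl2, Ccl6, Ccl7, Ccl9, Ccl12, Ccl20, Cx3cl1 and Cxcl9) against 16% of genes, and for 1 lower (Cxcl15) against 13.4%. Of these, Ccl12, Ccl6, Ccl9, Cxcl9 and Cxcl15 lay below the filter. The median was 0.17 with 25 of 33 above 0, beside 0.00 and 50.9% above 0 over all genes. Without double null array 2 the ligand median was 0.00 with 16 above 0. Without that array Cxcl2 differed by -0.01 and Cxcl1 by -0.20.

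Leaving out an array left 1 double null array against 2 ApoE null arrays, so the spread came from the ApoE null arrays and the lone array was assumed to vary as they do. Without double null array 1, limma passed 9 of 14 tested ligands (Ccl2, Ccl5, Ccl7, Ccl20, Cx3cl1, Cxcl1, Cxcl2, Cxcl10 and Cxcl12) against 17.1% of genes. Without double null array 2 it passed 2 (Ccl5 and Cxcl10) against 4.12%. In the first of these fits Ccl5 and Cxcl10 were higher and in the other they were lower, as their values above show. Such counts describe single arrays and not the genotype.

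The labels of the aortic arrays numbered 1 share a prefix that those numbered 2 do not, so the genotypes were also set against each other within each number. Among arrays numbered 2 the differences were 6.92 for Cxcl5, 5.61 for Cxcl2 (48.9-fold), 5.46 for Cxcl3 and 5.07 for Cxcl1 (33.6-fold). Cxcl5 and Cxcl3 lay far below the array median on the ApoE null array, so the size of their differences depends on dim values and no fold is given. Ordered by size from the top among 18193 genes, the differences of Cxcl2 and Cxcl1 stood at places 5 and 9, and those of Ccl20 (3.72, 13.2-fold) and Ccl7 (2.98, 7.87-fold) at 17 and 25. Among arrays numbered 1 Cxcl5, Cxcl2, Cxcl3, Cxcl1, Ccl20 and Ccl7 differed by -0.04, -0.16, -0.05, -0.30, 0.17 and 0.30. With 1 array on each side neither set has a test.

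Ccl5, Cxcl10 and Ccl2 differed by 1.48, 1.40 and 1.12 within number 2 and by -0.87, -0.96 and 0.33 within number 1, so that the first 2 had opposite signs. Cxcl12 differed by -1.27 within number 2 and by 0.29 within number 1. Differences of at least 1 were found within number 2 for 9 higher ligands, against 1.61% of genes, and 1 lower (Cxcl12), against 2.29%. Within number 1 they were found for 1 higher ligand (Ccl6, at 1.26) against 0.929% of genes and for 0 lower against 0.572%. The median over the 33 was 0.23 within number 2, with 28 above 0, beside a median of 0 and 50.5% above 0 over all genes. Within number 1 it was -0.03, with 15 above 0, beside a median of 0 and 49.2% above 0 over all genes. Of the other members whose windows held an NF-kB match, Ccl1, Ccl9 and Ccl27a differed by 0.14, 0.28 and -0.30 within number 2.

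**Figure D5:**
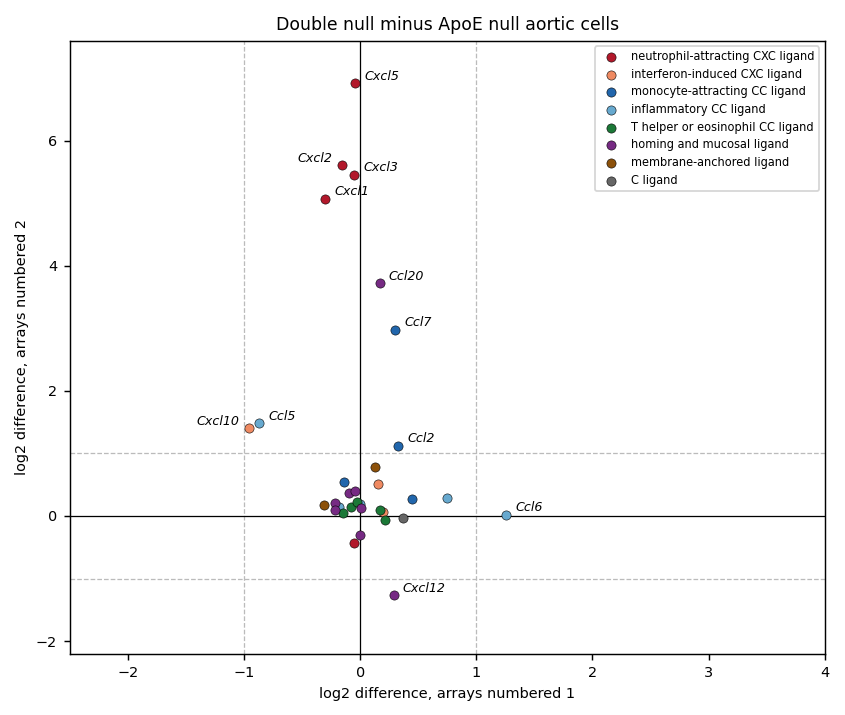
Difference in log2 value between double null and ApoE null aortic cells for each of the 33 ligands, within the arrays numbered 1 (horizontal axis) and within those numbered 2 (vertical axis), with dashed lines at -1 and 1 and names at differences of at least 1. Cxcl5, Cxcl2, Cxcl3, Cxcl1, Ccl20 and Ccl7 lie high on the vertical axis, from 2.98 to 6.92, and near 0 on the horizontal axis.

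Among genes listed as upstream of these ligands, Csf2 stood apart on the same array, while Il6 was higher on both double null arrays and most on that one. Of 14 NF-kB pathway genes with a probe set 0 passed. Within number 2 their median was 0.43 with 1 at 1 or more, beside 1.61% of all genes. That gene was Nfkbiz, an NF-kB cofactor named here after its values were seen, with values of 8.47 and 8.55 against 8.43 and 10.27. In the list of upstream cytokines and sensors, 2 of 14 genes had a difference of at least 1 within number 2, beside the same 1.61%. They were Csf2, a myeloid growth factor, at 6.15 and Il6 at 3.76. Within number 1 Csf2 differed by 0.36 and Il6 by 1.02. Il6 had the smallest p of the list in the comparison, at 2.39 (SE 0.72, limma adjusted p = 0.969). Tnf, the cytokine that typically activates NF-kB, measured 3.66 and 3.86 against 3.90 and 4.74, and Il1b measured 3.91 and 4.24 against 3.81 and 4.37, both named after their values were seen and both near or below the array medians. Of 21 chemokine receptors with a probe set 7 were tested and 0 passed. Cxcr4, the receptor of Cxcl12, was at 0.92 (SE 0.21, limma adjusted p = 0.745), Ackr1, a decoy receptor of venular endothelium, at 0.65 (SE 0.17, limma adjusted p = 0.849) and Ackr4 at -0.96 (SE 0.37, limma adjusted p = 1).

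Leukocyte markers were mostly dim in these cultures. Of the 9 neutrophil markers with a probe set 0 were above the median on any aortic array. In the macrophage list 5 of 16 were above it on all 4 arrays, and the summed linear level of the list was 2050 and 1868 on the ApoE null and 2748 and 3881 on the double null arrays. Of the 5 tested, 4 were higher in double nulls at an unadjusted p under 0.05 in limma, beside 2.67% of all genes, and 0 passed. Over the 16 markers 13 were above 0, with a median of 0.13. The lysozyme gene Lyz2 measured 5.33 and 5.48 against 7.46 and 9.47. Adgre1 measured 3.34 and 3.11 against 3.37 and 3.42 and C1qa 2.66 and 2.85 against 3.07 and 2.98, both below the array medians and not tested. The summed endothelial markers were 25250 and 24810 against 25060 and 22230. Stellate cell and fibroblast markers summed to 5307 and 5192 against 11170 and 9383, and smooth muscle markers to 2617 and 2476 against 6114 and 2030. Of the 10 stellate cell and fibroblast markers, 5 were higher by at least 1 within number 1, beside 0.929% of all genes, with a median of 1.18. Within number 2 their median was -0.11, with 1 higher and 2 lower by at least 1, beside 1.61% and 2.29% of all genes. The part of other cells in the ligand values was not tested.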

How the data were processed

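RNA from mouse liver (8 arrays) and from cultured aortic endothelial cells (4 arrays) was hybridised to Affymetrix mouse genome arrays, 12 arrays in all. The authors deposited the liver arrays as signal intensity on a linear scale, made with MAS5 in GeneChip Operating Software and scaled to a common average. The authors deposited the aortic arrays as log2 values. How they were normalized: not given in the sources used here. Processing notes of the submitters list the Transcriptome Analysis Console. No raw scanner files were used, and the number of arrays limits the precision.

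Control probe sets (64) were left out, 45037 remained, and gene names came from the platform annotation, updated by Entrez identifier against RefSeq. Probe sets with 1 gene numbered 34945, with several genes 932 and with none 9160. Each tissue was fitted alone with limma 3.58.1 in R 4.3.3, on log2(signal + 16) for the liver, which understates differences of dim genes, and on the log2 values for the aorta. A probe set was tested if at least 2 arrays of its tissue had it above their median (32005 in liver, 22927 in aorta), with Benjamini-Hochberg adjustment over all of them and a threshold of 0.05. The liver fit had 4 residual degrees of freedom and the aortic fit 2. The methods name no test specific to the arrays. Analysis steps were tested on simulated data.

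A comparison names the up to 6 tested ligands with the lowest unadjusted p, and up to 3 genes of each other list. Values are given for ligands above the median on all arrays. Other genes were chosen after their values were seen. The members and lists were chosen with earlier results of these data known. Same-numbered aortic arrays share a prefix in their source names, and the correlation of their deviations from the group means was 0.297. Alternatives were the offset, quantile normalization, the filter, the empirical Bayes options, a t-test, a replicate block and leaving out each array.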

Additional observations from a re-analysis of the deposited data

How the results depend on the processing

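No ligand passed the adjusted threshold in any of the 9 comparisons, and this count of 0 was also found with the replicate block, with quantile normalization, with other offsets and filters and without any single liver array. Exceptions were limma's trend and robust options, which passed 1 ligand, Cxcl1, in double null against Dscr-1 null livers (adjusted p = 0.0392, among 0.19% of genes) and 1, again Cxcl1, in ApoE lacking against intact livers (adjusted p = 9.62e-05, among 0.474%). In the aorta, leaving out 1 array gave counts from 0 to 9. Without 1 array at a time, signs turned in ApoE null against WT livers for Ccl25 (-1.57 to 0.06, the latter without ApoE null array 2), in double null against ApoE null livers for Ccl5 (-0.25 without ApoE null array 1 and -0.01 without double null array 1, up to 2.05) and Ccl6 (-0.03 without ApoE null array 2, up to 1.72), and in the aorta for Cxcl2 (-0.01 to 5.46) and Cxcl1 (-0.20 to 4.97), the lower values without double null array 2. Of the other values for single genes, 851 kept their direction and side of the threshold and 8 passed it: Cxcl1 in both liver fits above, and Ccl2, Cx3cl1, Ccl7, Ccl20, Cxcl2 and Cxcl1 in the aorta without double null array 1. The cause was not tested. The median over the ligands in double null against WT livers was 0.80 with an offset of 1, 0.30 with one of 64 and 0.47 after quantile normalization. With 2 arrays a group, and many ligands near or below the array medians, a difference that did not pass is not shown to be absent.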

Other observations

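The genes beside the chemokine ligands at the top of the differences between the aortic arrays numbered 2 were chosen after their values were seen and have no test, with 1 array on each side. They were of mixed kinds, and the myeloid growth factors Csf2 and Csf3 were among them. Others were Steap4 at 5.82, Mmp13 at 5.78, Lyz1 at 4.71, Mmp3 at 4.41 and Hprt at 3.90. Csf2, the granulocyte-macrophage colony-stimulating factor, measured 4.02 and 4.25 on the ApoE null arrays and 4.37 and 10.40 on the double null arrays. Csf3, the granulocyte colony-stimulating factor, measured 6.32 and 6.13 against 5.62 and 11.44. Double null array 1 was close to the ApoE null arrays for both genes. The neutrophil gelatinase-associated lipocalin Lcn2 measured 7.13 and 7.40 against 7.68 and 12.77, again on double null array 2 alone. Il6 measured 5.25 and 4.63 against 6.27 and 8.39, above the ApoE null arrays on both.

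At the other end of the same ordering stood Sfrp2, a secreted Wnt modulator, at 10.58 and 10.62 against 7.93 and 3.80, and the cardiac genes Tnnt2, at 9.30 and 9.46 against 10.33 and 5.27, and Tbx20, at 9.24 and 9.60 against 9.44 and 5.71. Double null array 2 was the lowest of the 4 for each of them. The chemokine decoy receptor Ackr3 measured 9.23 and 9.12 against 8.80 and 6.63 there, and the platelet chemokine Pf4, from the chromosome 5 cluster, measured 4.62 and 4.82 against 4.63 and 6.28.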
